A study of Mus musculus with 16 samples.

Results

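The genotype difference in mouse skin after 1 day of 4-hydroxytamoxifen was taken from 6 of the 16 arrays of a time course. The 6 were chosen by their titles: 3 arrays of K14deltaNB-cateninER skin at time 1 and 3 arrays of wild-type skin at time 1, with all probe sets. The transgenic mice were of line D2, of unstated background strain, and the wild-type mice were C57BL/6. Both groups were given 4-hydroxytamoxifen for 1 day, and RNA was taken from total skin. Skin treated with vehicle only was not among the samples. The drug and its duration were shared by both groups, while the transgene and any difference in strain cannot be told apart. The keratin 14 promoter limits the transgene to the basal layer of the epidermis and the outer root sheath of the hair follicle, so most cells in total skin do not carry its product. The labels speak of mice for 5 of the arrays and of 1 mouse for wild-type replicate 3, and do not say whether animals were pooled. The p-values therefore measure only how far these samples vary, and some of that variation may be technical. The labels used here give no age.

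β-Catenin carries the canonical Wnt signal: without Wnt it is marked for destruction at its N-terminus, and with Wnt it accumulates, enters the nucleus and activates genes together with LEF/TCF factors. In the transgene the N-terminus is removed, which stabilises the protein, and the hormone-binding domain of an oestrogen receptor is joined to it, which holds it inactive until 4-hydroxytamoxifen is bound. In skin, β-catenin signalling is known for starting hair follicles and for driving their growth phase. Glucocorticoids are the hormones for which a list of responsive genes is read below. They act through a nuclear receptor in nearly every skin cell, where they restrain inflammation and affect the barrier.

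Intensity was measured for 22690 probe sets per array, and 9058 genes were tested, each by its brightest probe set. Differences are given as transgenic minus wild-type on the scale log2(intensity + 32), with the standard error (SE) of the limma fit, and the added 32 makes differences between dim genes smaller than the ratio of their intensities. The threshold for a gene was an adjusted p under 0.05 (limma, two-sided, Benjamini-Hochberg over all 9058 genes). The trimmed mean intensity of the 6 arrays before scaling lay between 408 and 535. Arrays of the same group correlated across genes at r = 0.978 to 0.985 and arrays of different groups at 0.962 to 0.982, genes not being independent replicates. Transgenic replicate 3 stood apart in RNA quality: the 3′ probe set exceeded the 5′ one 1.16-fold for Gapdh and 1.87-fold for actin, against 0.916 to 1.00 and 1.36 to 1.59 on the other 5 arrays. That array was also the lowest for the macrophage and monocyte markers, at a mean log2 level of 10.39 against 10.83 to 10.92 on the other 5. The epidermis within the total skin showed in Krt5 and Krt14, the keratins of basal keratinocytes, at 6119 to 9471 on every array.

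Esr1, the oestrogen receptor gene from which the hormone-binding part of the fusion comes, served as the check of the genotype labels. Its intensity was 300, 159 and 80.7 on the transgenic arrays and 36.4, 15.9 and 44.9 on the wild-type arrays. The groups did not overlap, and transgenic replicate 3 was the lowest of its group. The log2 difference was 1.61 ± 0.31 (SE, adjusted p = 0.0266), with an adjusted p of up to 0.0914 over the alternative settings. Whether the probe set reads the endogenous gene, the transgene or both is not shown by the files. Ctnnb1, which encodes β-catenin, stood at 5268, 5239 and 5752 in transgenic and 4845, 4812 and 4977 in wild-type skin, which gave 0.15 ± 0.07 (SE, adjusted p = 0.236). The keratin genes of the layer that carries the promoter differed by 0.15 ± 0.08 for Krt14 (adjusted p = 0.298) and 0.14 ± 0.09 for Krt5 (adjusted p = 0.39).

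After 1 day of drug the transgenic skin held more RNA of repair keratins, of a receptor linked to wounding, of metallothioneins and of 3 further glucocorticoid-responsive genes than wild-type skin. It held less of thrombospondin 1, of the enzyme that starts glycosphingolipid synthesis and of the eosinophil chemokine eotaxin. Of the genes meant here, Krt6b, Fkbp5, Dusp1 and Ccl11 (eotaxin) lost their call when certain single day 1 arrays were left out. In total 118 genes were past the threshold, which is 1.3% of those tested, 64 of them higher (0.707%) and 54 lower (0.596%) in transgenic skin. More and less here compare the genotypes at day 1, and not day 1 with day 0. Of the 64 higher genes, 58 had a wild-type mean below its day 0 level and 47 a transgenic mean above it. Of the 54 lower genes, 51 had a wild-type mean above its day 0 level and 51 a transgenic mean below it. For Krt16 the transgenic mean was 282 and then 287, and the wild-type mean 209 and then 100.5. Differences were small: 11 of the 118 reached 2-fold on the log2 scale, 9 higher and 2 lower. The 6 arrays did not overlap between genotypes for all 118 genes, while 24.8% of all genes tested had groups that did not overlap. The unadjusted p was under 0.05 for 1818 genes (20.1%). The median difference of all genes was 0.00 with a median SE of 0.12.

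**Figure D1:**
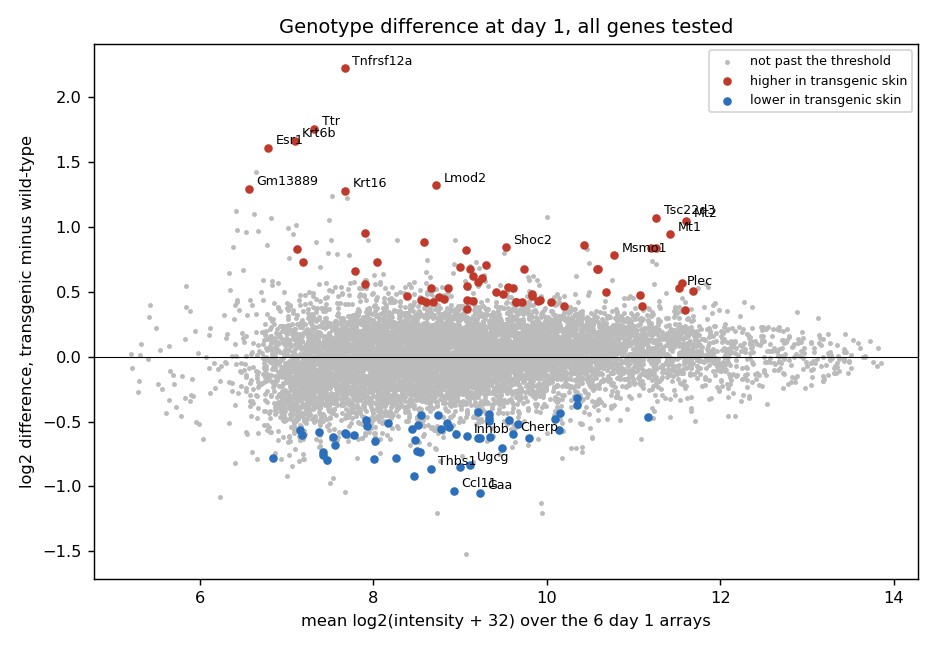
Each point is 1 of the 9058 genes, with its mean log2(intensity + 32) over the 6 day 1 arrays on the horizontal axis and the log2 difference, transgenic minus wild-type, on the vertical axis; 64 genes past the threshold and higher in transgenic skin are red and 54 lower are blue. Tnfrsf12a stands highest at 2.22, and Gaa at -1.05 is the lowest of the genes past the threshold.

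The number of genes depended on single arrays. It was 29 without transgenic replicate 1, 127 without transgenic replicate 2 and 22 without transgenic replicate 3 of day 1, and 17, 19 and 72 without wild-type replicates 1, 2 and 3. Arrays of other days enter through the shared estimate of the spread, and the count was 76 without transgenic day 7 replicate 1 and 63 and 62 without wild-type day 7 replicates 1 and 2. It was 16 when the arrays were not scaled further and 27 when the 6 arrays were fitted alone. With each of the 16 arrays left out in turn, 13 genes stayed past the threshold: Tnfrsf12a, Krt16, Gm13889, Tsc22d3, Mt2, Mt1, Shoc2, Msmo1 and Plec on the higher side and Thbs1, Ugcg, Inhbb and Cherp on the lower side. Of these 13, 6 were also past it under every other setting that tested them, namely Krt16, Mt1, Mt2, Tnfrsf12a, Tsc22d3 and Gm13889. The other 105 genes each lost their call with at least 1 of the 6 day 1 arrays left out, and those named below are given on that footing.

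**Figure D2:**
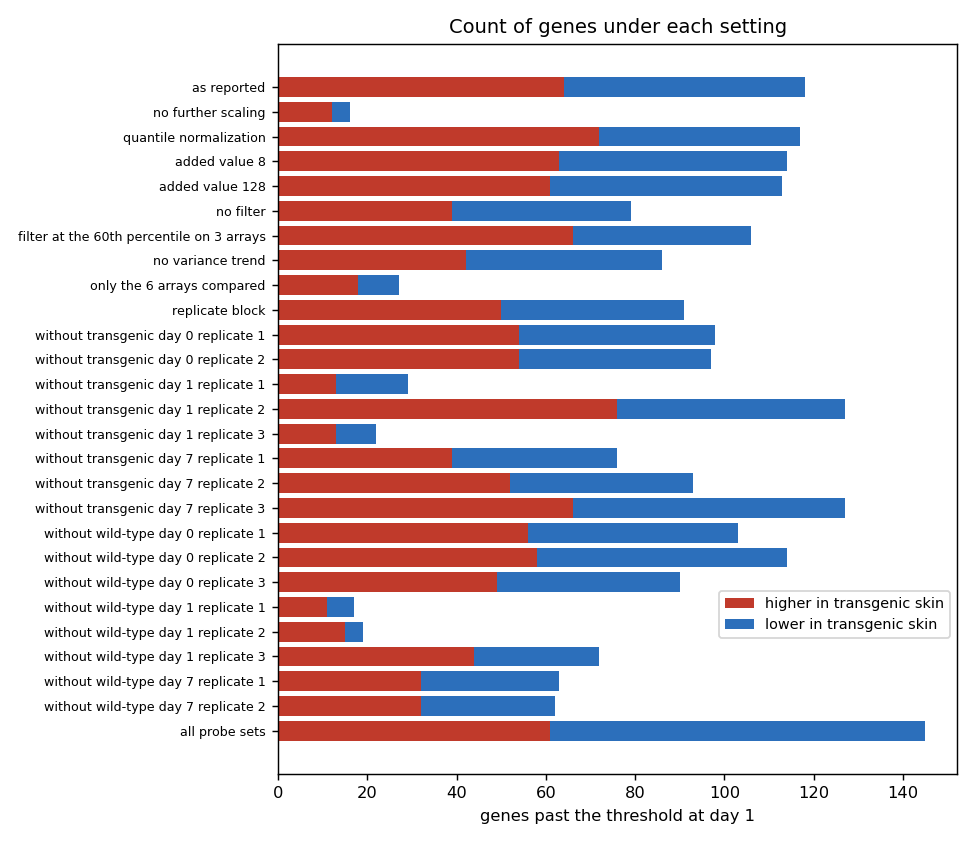
Bars give the number of genes past the threshold at day 1 as reported (118) and under each alternative setting, split into genes higher (red) and lower (blue) in transgenic skin. Leaving out transgenic replicate 1 or 3, or wild-type replicate 1 or 2, of day 1 leaves between 17 and 29 genes. The lowest bar tests all probe sets and counts genes with at least 1 probe set past the threshold.

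Tnfrsf12a encodes Fn14, the receptor of the cytokine TWEAK, which is induced by injury and growth factors. It had the largest difference of all genes past the threshold. Its intensity was 338, 436 and 459 on the transgenic arrays and 78.3, 55.6 and 55.4 on the wild-type arrays, so that the lowest transgenic array lay above the highest wild-type array by a wide margin. The group means were 6.52-fold apart, and the log2 difference was 2.22 ± 0.23 (SE, adjusted p = 0.000408). At day 0 the means were 294 in transgenic and 217 in wild-type skin. The other kept probe set of the gene gave 0.74 ± 0.22 (SE), with an adjusted p of 0.0938 over all probe sets.

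Krt16 and Krt6b encode the pair of keratins that epidermis adds when it is wounded or dividing fast. Krt16 stood at 246, 323 and 293 in transgenic and 127, 91.0 and 83.7 in wild-type skin. All transgenic arrays were above all wild-type arrays, by 1.28 ± 0.20 (SE, adjusted p = 0.00939). Krt6b was dimmer and more scattered, at 191, 340 and 141 against 89.9, 53.5 and 11.5, a difference of 1.66 ± 0.36 (SE, adjusted p = 0.0383). The groups did not overlap, but the adjusted p reached 0.101 over the alternatives. The near-identical Krt6a, which the same stimuli induce, stood at 2761, 3096 and 3461 against 1448, 1776 and 2567, a difference of 0.71 ± 0.20 that was not past the threshold (adjusted p = 0.0831). Probes for these sister genes may read each other's RNA.

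Of the 27 genes listed for wounded epidermis, 19 were tested. Past the threshold were 3, all higher, beside 0.707% of all genes: Tnfrsf12a, Krt6b and Krt16. The median difference of the 19 was 0.22, and 7 were higher and 2 lower at an unadjusted p under 0.05, where all genes gave 10.5% higher and 9.54% lower. Epgn, a ligand of the epidermal growth factor receptor, stood at 262, 197 and 280 in transgenic and 125, 127 and 134 in wild-type skin (0.78 ± 0.20, adjusted p = 0.0684). Il1b, an alarm cytokine on the same list, lay on the other side, at 111, 109 and 95.2 against 165, 152 and 149 (-0.45 ± 0.13, adjusted p = 0.0872). Neutrophil markers, which accompany open wounds, were dim: 3 of 10 were tested, 0 were past the threshold in limma, 1 was lower at an unadjusted p under 0.05, and their summed intensity was 312 to 430 in transgenic and 370 to 674 in wild-type skin.

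**Figure D3:**
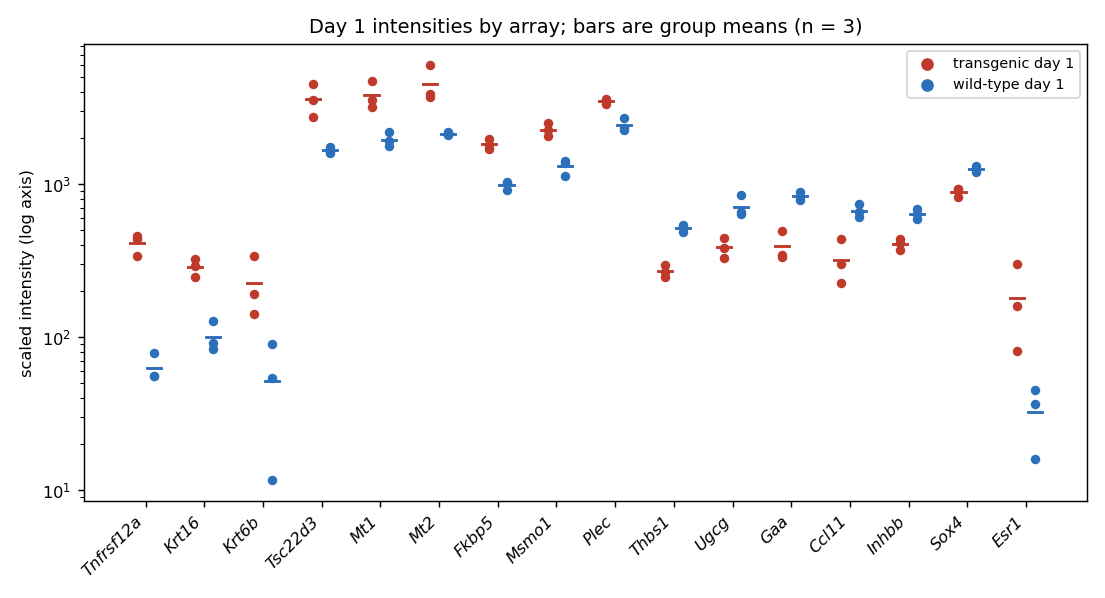
Scaled intensity on a log axis for 16 genes, with each dot 1 of the 3 transgenic (red) or 3 wild-type (blue) day 1 arrays and each bar the mean of a group. The groups do not overlap for any of the 16 genes, and the dots of Krt6b and Esr1 are the most scattered, Krt6b reaching down to 11.5 on wild-type replicate 3.

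Of 30 glucocorticoid-responsive genes listed, 27 were tested, and 5 were past the threshold, all higher in transgenic skin, beside 0.707% of all genes: Tsc22d3, Mt2, Mt1, Fkbp5 and Dusp1. The median difference was 0.32, the highest of the lists with at least 5 tested genes and beside 0.00 for all genes, and 25 of the 27 values were above 0. At an unadjusted p under 0.05, 16 were higher and 0 lower, beside 10.5% and 9.54% of all genes. The list's summed intensity was 47463 to 58637 on the transgenic arrays and 37151 to 38956 on the wild-type arrays. Transgenic replicate 3, the array with the highest 3′ to 5′ ratios, was the highest, and without it the median was 0.34 and 3 members were past the threshold. The count was also 3 without transgenic replicate 1, wild-type replicate 1 or wild-type replicate 2, and without further scaling. With quantile normalization the median was 0.27, below the 0.32 that the wounded epidermis list then had, and with the stricter filter it was 0.35 against 0.44. The list was chosen with earlier results of these arrays known, so its count is a description.

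The 250 bases before the RefSeq transcription start of 4 of the 5 genes are shown because these genes moved together and their windows hold matches to the motifs searched. Capitals mark matches, on either strand, to a glucocorticoid receptor half-site (AGAACA), an AP-1 site (TGACTCA), an E-box (CACGTG) or a cAMP response element (TGACGTC). All windows are from RefSeq on GRCm38.p6 and are written 5′ to 3′ along the gene's strand.
Tsc22d3, chrX:140600523-140600772, minus strand, the start of 1 of its 3 RefSeq windows: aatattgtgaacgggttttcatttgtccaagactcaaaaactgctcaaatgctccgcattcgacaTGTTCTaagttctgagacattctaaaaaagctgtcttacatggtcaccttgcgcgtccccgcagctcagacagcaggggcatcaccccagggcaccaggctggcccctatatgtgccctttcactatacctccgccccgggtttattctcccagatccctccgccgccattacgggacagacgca
Mt2, chr8:94172368-94172617, plus strand: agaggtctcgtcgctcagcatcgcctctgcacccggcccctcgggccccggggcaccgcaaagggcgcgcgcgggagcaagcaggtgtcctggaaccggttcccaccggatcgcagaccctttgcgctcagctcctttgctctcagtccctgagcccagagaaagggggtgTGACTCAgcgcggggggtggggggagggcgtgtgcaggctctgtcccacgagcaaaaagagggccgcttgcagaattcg
Fkbp5, chr17:28486150-28486399, minus strand: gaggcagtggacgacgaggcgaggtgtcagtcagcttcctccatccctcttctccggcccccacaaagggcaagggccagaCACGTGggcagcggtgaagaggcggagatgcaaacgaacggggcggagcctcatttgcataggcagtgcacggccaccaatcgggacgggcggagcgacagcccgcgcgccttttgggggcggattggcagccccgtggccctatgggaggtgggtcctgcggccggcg
Dusp1, chr17:26508473-26508722, minus strand: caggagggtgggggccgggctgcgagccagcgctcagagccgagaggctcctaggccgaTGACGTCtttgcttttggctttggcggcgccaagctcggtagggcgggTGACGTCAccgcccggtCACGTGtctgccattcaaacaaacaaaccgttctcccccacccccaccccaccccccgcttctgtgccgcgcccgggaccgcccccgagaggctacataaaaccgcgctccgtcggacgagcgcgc
The half-site of Tsc22d3 began 185 bases before the start, the AP-1 site of Mt2 79, the E-box of Fkbp5 169 and that of Dusp1 126, and the cAMP response elements of Dusp1 191 and 143, the last matching on both strands with a shift of 1 base. The other windows of Tsc22d3 and the window of Mt1 held no match. The half-site was found for 5 of 23 listed glucocorticoid-responsive genes with a window (21.7%), 8 of 48 genes higher in transgenic skin (16.7%), 6 of 42 lower (14.3%), 13.2% of all genes tested with a window and 16.1% of all 32851 windows in the table. The E-box was found for 9 of 48 higher (18.8%), 2 of 42 lower (4.76%), 7 of 23 listed glucocorticoid-responsive genes (30.4%) and 9.98% of all genes. For the AP-1 site the shares of higher, lower and all genes were 10.4%, 4.76% and 4.8%, with 1 of 23 listed genes (4.35%). For the cAMP response element they were 6.25%, 4.76% and 5.18%, with 4 of 23 listed genes (17.4%). For the LEF/TCF site (CTTTGAA) they were 6.25%, 2.38% and 4.03%, with 1 of 23 listed genes (4.35%). A match is a run of letters in this window and says nothing about whether a factor binds there.

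Tsc22d3 encodes GILZ, a leucine-zipper protein that carries much of the anti-inflammatory action of glucocorticoids. It stood at 3564, 2736 and 4503 on the transgenic arrays and at 1747, 1590 and 1659 on the wild-type arrays. Every transgenic array exceeded every wild-type array, by 1.07 ± 0.14 (SE, adjusted p = 0.00214), and the lowest transgenic value was well above the highest wild-type value. The day 0 means were 2708 ± 262 (SD, n = 2, transgenic) and 2659 ± 376 (SD, n = 3, wild-type). A second probe set gave 0.83 ± 0.16 (adjusted p = 0.0301 over all probe sets) and a dimmer one 0.15.

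Mt1 and Mt2 encode metallothioneins, small proteins that bind zinc and copper and are induced by metals as well as by glucocorticoids. Mt2 stood at 3891, 3732 and 6040 in transgenic and 2180, 2115 and 2111 in wild-type skin, a difference of 1.05 ± 0.14 (SE, adjusted p = 0.00214). Mt1 stood at 3529, 3202 and 4746 against 1913, 2179 and 1777, a difference of 0.94 ± 0.13 (SE, adjusted p = 0.00421). For both genes transgenic replicate 3 was the highest array and the groups did not overlap. The Mt1 probe set is of a kind designed to match several related transcripts, so the values of the 2 genes may not be independent.

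Fkbp5 encodes a co-chaperone of the glucocorticoid receptor and is itself induced by it. Its intensity was 1691, 1812 and 1970 against 919, 1023 and 1026, a difference of 0.86 ± 0.17 (SE, adjusted p = 0.0267). The arrays of the groups were far apart on this probe set, but the other kept probe set read 485 in both groups, a difference of 0.00. Dusp1, a phosphatase that shuts off MAP kinases, stood at 1802, 2020 and 1937 against 1424, 1329 and 1295, a difference of 0.50 ± 0.10 (SE, adjusted p = 0.0325). Its groups did not overlap, although its call was lost with any of the 6 day 1 arrays left out. Of the members that were not past the threshold, Errfi1, a feedback inhibitor of the epidermal growth factor receptor, stood at 3116, 2459 and 3636 against 1880, 1655 and 1909 (0.73 ± 0.19, adjusted p = 0.0704). Pdk4, a kinase that turns down glucose oxidation, stood at 690, 899 and 1293 against 590, 437 and 547 (0.80 ± 0.34, adjusted p = 0.2).

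**Figure D4:**
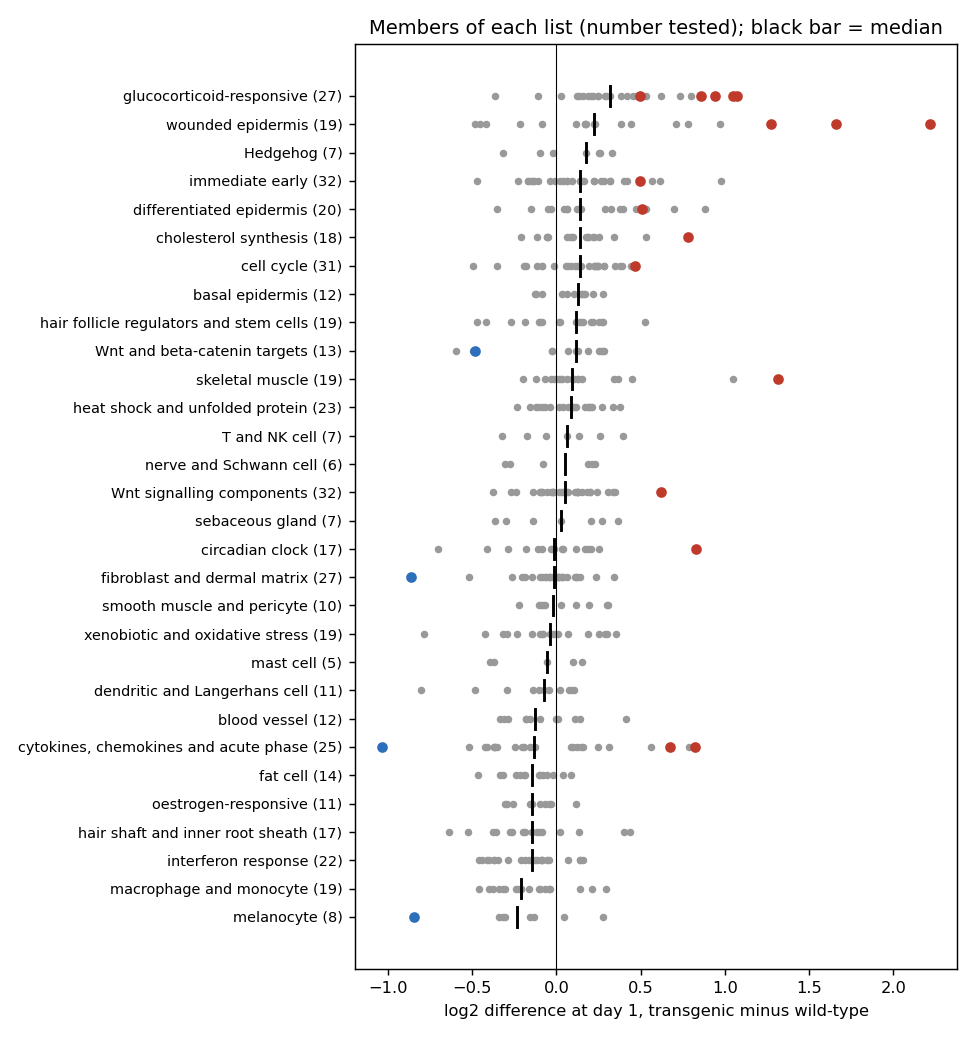
Each dot is a tested member of a list with at least 5 tested members, placed at its log2 difference at day 1 (transgenic minus wild-type); red and blue dots are past the threshold, and the black bar is the list's median. Glucocorticoid-responsive genes have the highest median, 0.32, though not under quantile normalization or the stricter filter, and 25 of their 27 dots lie above 0; the hair shaft and inner root sheath list holds mostly genes that needed the transgenic day 7 arrays to pass the filter.

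Plec encodes plectin, which ties keratin filaments to hemidesmosomes. It stood at 3545, 3354 and 3608 in transgenic and 2327, 2694 and 2267 in wild-type skin, with no overlap (0.53 ± 0.08, adjusted p = 0.00656). Eppk1, for the related epiplakin, differed by 0.57 ± 0.10 (adjusted p = 0.0205). Lad1, for the basement membrane protein ladinin, differed by 0.47 ± 0.10 (adjusted p = 0.0414), and Sfn, for the keratinocyte 14-3-3 protein stratifin, by 0.67 ± 0.15 (adjusted p = 0.0415). Plec, Eppk1, Lad1 and Sfn were in no list and were picked after their values were seen.

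Of 20 tested genes of differentiated epidermis 1 was past the threshold, Cdsn, which encodes corneodesmosin, an adhesive of the cornified layer. It stood at 3766, 3765 and 4114 against 2323, 3205 and 2701 (0.51 ± 0.11, adjusted p = 0.0364). The share past the threshold was 1.3% over all genes. The median of the list was 0.14, and 8 members were higher and 1 lower at an unadjusted p under 0.05, beside 10.5% and 9.54% of all genes. Ivl, for the envelope protein involucrin, stood at 189, 174 and 198 against 58.6, 100 and 108 (0.88 ± 0.21, adjusted p = 0.0564), and Casp14, for the protease of the cornified layer, at 645, 673 and 702 against 316, 498 and 415 (0.70 ± 0.17, adjusted p = 0.0584). Both had groups that did not overlap, as did 24.8% of all genes, without being past the threshold. Of 12 basal genes 0 were past the threshold in limma and 1 was higher at an unadjusted p under 0.05, with a median of 0.13.

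In sterol synthesis, Msmo1, a demethylase of the later steps, was the 1 of 18 tested genes past the threshold, beside 1.3% of all genes. Its intensity was 2251, 2500 and 2069 against 1134, 1383 and 1423, so the groups were apart by 0.78 ± 0.12 (SE, adjusted p = 0.00669). Hmgcs1, at the start of the pathway, stood at 4360, 3997 and 5000 against 2450, 3169 and 3673 (0.53 ± 0.13, adjusted p = 0.0525). The median of the list was 0.14.

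Other large differences on the higher side belonged to genes of varied roles. Ttr, the plasma carrier of thyroxine and retinol-binding protein, stood at 156, 265 and 419 against 36.6, 59.4 and 73.0 (1.75 ± 0.31, adjusted p = 0.0205), and its other 2 probe sets gave 2.31 and 2.06. Gm13889 was dim in wild-type skin, at 121, 94.5 and 134 against 37.8, 18.8 and 30.0 (1.29 ± 0.20, adjusted p = 0.00669). Shoc2, a scaffold of RAS signalling, stood at 990, 886 and 993 against 454, 527 and 583 (0.84 ± 0.11, adjusted p = 0.00214), but its other, dimmer probe set gave -0.24. Ece1, which makes active endothelin, differed by 0.88 ± 0.18 (adjusted p = 0.0301), with 0.24 on its other probe set, and Rusc2 by 0.95 ± 0.21 (adjusted p = 0.0383).

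On the lower side, Thbs1 had the smallest p. It encodes thrombospondin 1, a matrix glycoprotein that restrains vessel growth and activates TGF-β. Its intensity was 266, 296 and 248 in transgenic and 521, 544 and 484 in wild-type skin, and the groups were far apart relative to their spread (-0.86 ± 0.11, adjusted p = 0.00214). The other kept probe set gave -0.75 ± 0.11 (adjusted p = 0.00762 over all probe sets). Thbs1 was the 1 of 27 tested fibroblast and matrix genes past the threshold, beside 1.3% of all genes, and the median of that list was -0.02.

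Ugcg encodes the enzyme that makes glucosylceramide, the first step to glycosphingolipids and to the barrier lipids of the epidermis. It stood at 328, 446 and 384 against 655, 638 and 848, with no overlap (-0.83 ± 0.13, adjusted p = 0.0096), while its other probe sets gave -0.39 and -0.01. Gaa, the lysosomal enzyme that breaks down glycogen, had the largest difference on the lower side, at 334, 495 and 346 against 891, 791 and 819 (-1.05 ± 0.21, adjusted p = 0.0325). Its other probe set gave -0.22, and the adjusted p reached 0.112 over the alternatives. Inhbb, for the βB subunit of activins and inhibins, stood at 369, 437 and 409 against 690, 588 and 634 (-0.61 ± 0.09, adjusted p = 0.00656). Cherp, a nuclear and endoplasmic reticulum protein tied to calcium release, stood at 625, 585 and 600 against 969, 850 and 975 (-0.60 ± 0.09, adjusted p = 0.00736).

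Sema3c encodes a secreted guidance cue and stood at 261, 259 and 248 against 412, 481 and 451 (-0.74 ± 0.12, adjusted p = 0.0158). Fgf7, the keratinocyte growth factor made by fibroblasts, stood at 107, 131 and 115 against 206, 176 and 213 (-0.62 ± 0.13, adjusted p = 0.0357). Adamts5, a protease of aggrecan and versican, stood at 527, 368 and 449 against 756, 673 and 684 (-0.63 ± 0.11, adjusted p = 0.0204). Fgf7, Adamts5, Inhbb and Cherp were picked after their values were seen. The remaining genes among the 12 largest on this side were 6820431F20Rik (-0.92), Rnf113a1 (-0.79), Wdfy3 (-0.79), Ddx60 (-0.78), Pla2g2d (-0.78), Mybpc3 (-0.76) and Sspo (-0.74), with adjusted p between 0.0205 for Rnf113a1 and 0.0496 for Ddx60.

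Among 25 tested cytokines, chemokines and acute phase genes, 2 were higher and 1 was lower past the threshold, beside 0.707% and 0.596% of all genes. Ccl11, which encodes eotaxin, stood at 437, 301 and 224 against 746, 652 and 612 (-1.03 ± 0.24, adjusted p = 0.0485). Cxcl14, a chemokine made by healthy epithelium, stood at 623, 554 and 913 against 345, 371 and 398 (0.82 ± 0.16, adjusted p = 0.0301). Serpina3n, a protease inhibitor of the acute phase, stood at 607, 626 and 789 against 484, 420 and 335 (0.67 ± 0.15, adjusted p = 0.0485). The groups did not overlap for these 3 genes, and the median of the list was -0.13.

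In the Wnt pathway, 1 target and 1 signalling component were past the threshold, beside 1.3% of all genes. Of 13 tested targets of β-catenin, 1 was past the threshold and it was lower: Sox4, a transcription factor of progenitor cells, at 923, 929 and 821 against 1316, 1249 and 1204 (-0.48 ± 0.10, adjusted p = 0.0315). Its other 4 probe sets gave values from -0.76 to -0.22. Axin2, the feedback inhibitor most used as a readout of the pathway, stood at 690, 660 and 814 in transgenic and 565, 622 and 606 in wild-type skin. Its groups did not overlap, as for 24.8% of all genes, and the difference of 0.26 ± 0.09 was not past the threshold (adjusted p = 0.145). Lgr5, the R-spondin receptor of follicle stem cells, stood at 237, 228 and 265 against 216, 252 and 281, which overlapped (-0.03 ± 0.13, adjusted p = 0.923). Jag1, a Notch ligand, stood at 113, 111 and 114 against 182, 163 and 171 (-0.50 ± 0.14, adjusted p = 0.086). The median of the 13 targets was 0.11.

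Of 32 tested components of Wnt signalling, 1 was past the threshold, Tle4, a corepressor that binds TCF factors. It stood at 685, 544 and 818 against 442, 375 and 469 (0.62 ± 0.14, adjusted p = 0.0396), and the median of the list was 0.05. Wls, which carries Wnt proteins to the cell surface, was past the threshold on its brightest probe set, at 631, 724 and 697 against 1087, 1179 and 956 (-0.62 ± 0.13, adjusted p = 0.0352). Its other probe sets gave -0.03 and 0.05. Without wild-type day 1 replicate 3 another of them became the brightest and the difference was 0.01. Wls is on no list and was picked after its values were seen.

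The lists of programmes that β-catenin is known to start in skin are small beside the 1.3% of all genes past the threshold, so a count of 0 or 1 in them says little. Of 7 tested Hedgehog genes 0 were past it in limma, and 1 was higher and 1 lower at an unadjusted p under 0.05, with Gli1 at 125, 135 and 157 against 109, 96.5 and 128.2 (0.26 ± 0.15, adjusted p = 0.365) and its partner target Ptch1 at -0.02 ± 0.13 (adjusted p = 0.953). Of 19 follicle regulators 0 were past the threshold in limma, 2 were higher and 2 lower at an unadjusted p under 0.05, and the median was 0.11. Their brightest members, Krt15 and Cd34, differed by 0.01 and 0.02. Of the 17 hair shaft and inner root sheath genes, 4 passed the filter on the 13 arrays other than transgenic day 7, and the rest needed the transgenic day 7 arrays to pass it, so no count or median of that list is read at day 1. Krt75, a follicle keratin and the brightest of the list at day 1, had means of 640 in transgenic and 465 in wild-type skin (0.43 ± 0.15 SE on the log2 scale, limma adjusted p = 0.131), and its arrays overlapped. Of 31 cell cycle genes 1 was past the threshold, Cdt1, which licenses DNA replication, at 1000, 1065 and 1049 against 738, 742 and 746 (0.47 ± 0.11, adjusted p = 0.0488). That list had a median of 0.14, with 9 genes higher and 1 lower at an unadjusted p under 0.05, beside 10.5% and 9.54% of all genes. Mki67, a marker of dividing cells, stood at 765, 881 and 747 against 611, 569 and 642, without overlap (0.37 ± 0.13, adjusted p = 0.132).

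Markers of other cell types were counted because the samples are whole skin, where fewer cells of a type and less RNA per cell cannot be told apart. Over all genes, 1.3% were past the threshold, and 10.5% were higher and 9.54% lower at an unadjusted p under 0.05. Of 19 skeletal muscle genes 1 was past the threshold, Lmod2, which builds actin filaments in muscle, at 446, 819 and 702 against 157, 438 and 186 (1.32 ± 0.28, adjusted p = 0.0368). Xirp1, another gene of striated muscle, stood at 135, 228 and 361 against 53.6, 132 and 106, which overlapped (1.05 ± 0.39, adjusted p = 0.16). At an unadjusted p under 0.05, 4 genes of the list were higher and 0 lower, and its median was 0.09. The summed intensity of the list was 122710 to 133430 in transgenic and 112780 to 133500 in wild-type skin, which overlapped, and its mean log2 level was 12.18 to 12.35 against 11.88 to 12.17, which did not. Its part in other differences was not tested. Of 8 melanocyte genes 1 was past the threshold, Ednrb, the endothelin receptor that vessels and other skin cells express too, at 454, 392 and 235 against 783, 667 and 529 (-0.85 ± 0.19, adjusted p = 0.0414). The summed melanocyte markers, Ednrb included, were 2022 to 2134 against 2374 to 2513, which did not overlap. Their mean log2 level was 7.71 to 7.86 against 7.83 to 8.14, which did. Of the 8 genes, 6 passed the filter on the 13 arrays other than transgenic day 7. Of 19 macrophage and monocyte genes 0 were past the threshold in limma, 2 were lower at an unadjusted p under 0.05 and 16 of 19 values were below 0, with a median of -0.21. Their summed intensity was 38258 on transgenic replicate 3, 54206 and 55893 on the other transgenic arrays and 53211 to 57546 on the wild-type arrays, and its part in the differences of single genes was not tested. No gene was past the threshold among the tested T and NK cell, B and plasma cell, dendritic and Langerhans cell, mast cell, blood vessel, smooth muscle, fat cell, sebaceous gland, nerve and Schwann cell and neutrophil markers. At an unadjusted p under 0.05, each of these lists had at most 1 gene higher and at most 3 lower. All 7 red blood cell markers were left untested, 4 of them being on the array.

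How far these differences were present before the drug was asked with the day 0 arrays, 2 transgenic and 3 wild-type. At day 0, 1 gene of 9058 was past the threshold (0.011%), Esr1, at 2.88. At an unadjusted limma p under 0.05, 22 of the 118 day 1 genes differed at day 0, beside 413 of all 9058 genes. Smaller differences at day 0 were therefore present for some of the 118. The interaction of genotype and day, which is the genotype difference at day 1 minus that at day 0, was past the threshold for 26 genes (0.287%), 10 higher and 16 lower. It uses the same day 1 arrays as the comparison above, so the values are given side by side and not as added support. Tnfrsf12a differed by 0.41 at day 0 and 2.22 at day 1, an interaction of 1.81 ± 0.34 (SE, adjusted p = 0.0375). The transgenic mean went from 294 to 411 and the wild-type mean from 217 to 63.1. Mt2 differed by -0.02 and then 1.05 (interaction 1.07 ± 0.20, adjusted p = 0.0375), with the transgenic mean above its day 0 level and the wild-type mean below it. Msmo1 differed by -0.22 and then 0.78 (1.00 ± 0.18, adjusted p = 0.0339), Plec by -0.15 and then 0.53 (0.67 ± 0.12, adjusted p = 0.0339) and Gm13889 by -0.21 and then 1.29 (1.50 ± 0.29, adjusted p = 0.0426).

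On the lower side the genotypes crossed for several genes. Thbs1 differed by 0.26 at day 0 and -0.86 at day 1, an interaction of -1.12 ± 0.16 (adjusted p = 0.0186). Its transgenic mean was 492 and then 270, its wild-type mean 406 and then 516. Kdm7a, a histone demethylase, differed by 0.69 and then -0.68 (-1.37 ± 0.19, adjusted p = 0.0173), with transgenic means of 181 and then 117 and wild-type means of 99.8 and then 206. Wdfy3, an autophagy adaptor, differed by 0.81 and then -0.79 (-1.60 ± 0.25, adjusted p = 0.0289), and the RNA 6820431F20Rik by 0.75 and then -0.92 (-1.67 ± 0.31, adjusted p = 0.0374). Ugcg gave -1.21 ± 0.20 and Sema3c -1.14 ± 0.19 (adjusted p = 0.0289 for both). Cherp gave -0.73 ± 0.14 (adjusted p = 0.0375). The interaction was not past the threshold for Tsc22d3 (1.04 ± 0.21, adjusted p = 0.0531), Mt1 (0.77 ± 0.20, adjusted p = 0.124) or Krt16 (0.90 ± 0.30, adjusted p = 0.199). Its count rested on few arrays: it was 0 when transgenic day 0 replicate 2 was left out, and likewise for transgenic day 1 replicate 1 and wild-type day 0 replicate 2. It was between 3 and 15 with any other day 0 or day 1 array left out, 18 without either wild-type day 7 array, and 7 without further scaling.

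Day 7 was compared as the later state, from 3 transgenic and 2 wild-type arrays that the day 1 comparison does not use, although the fit shares 1 estimate of the spread. There 3669 genes were past the threshold (40.5%), 1764 higher (19.5%) and 1905 lower (21%). Of the 118 genes of day 1, 64 were past it at day 7 (54.2% of the day 1 genes and 1.74% of the day 7 genes), beside 40.5% of all genes tested. The direction was kept by 35 and opposite for 29. Of the 64 genes higher at day 1, 21 were higher and 17 lower at day 7, and of the 54 lower, 14 were lower and 12 higher.

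**Figure D5:**
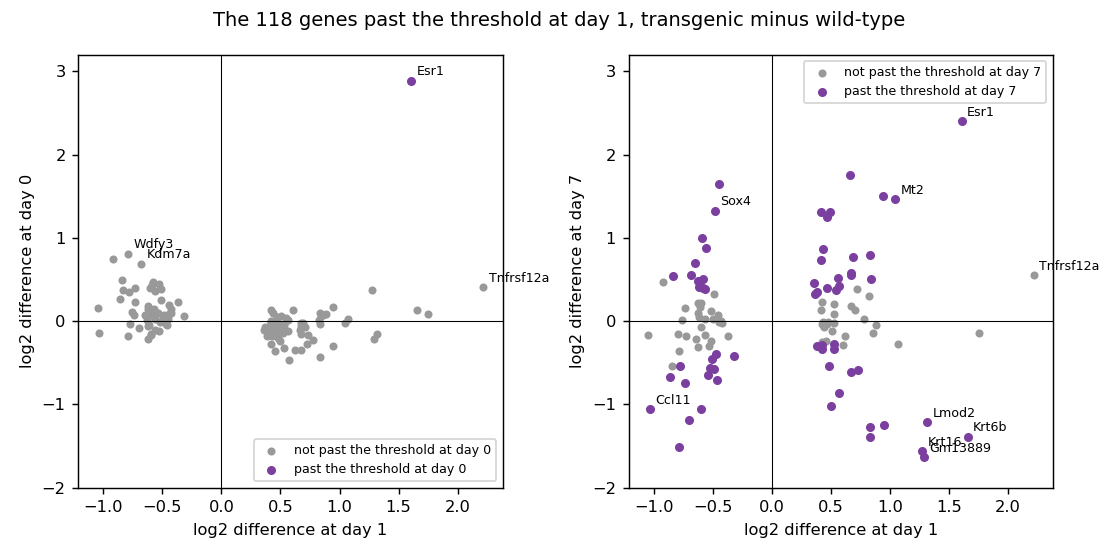
The 118 genes past the threshold at day 1, each placed by its log2 difference at day 1 (horizontal) and at day 0 (left) or day 7 (right), transgenic minus wild-type; purple points were past the threshold on that other day as well. At day 0 only Esr1 is purple, and at day 7 Krt16, Krt6b, Lmod2 and Gm13889 lie at or below -1.21.

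Genes past the threshold in the same direction on both days included the metallothioneins. Mt1 was 0.94 at day 1 and 1.50 at day 7, when its mean was 5203 ± 318 (SD, n = 3, transgenic) against 1827 ± 294 (SD, n = 2, wild-type). Mt2 was 1.05 and 1.46. Esr1 was 1.61 and 2.40, Shoc2 0.84 and 0.50, Ccl11 -1.03 and -1.06, and Thbs1 -0.86 and -0.67. Nfil3, a repressor that binds D-box sites, stood at 161, 107 and 205 against 68.1, 62.3 and 87.4 at day 1 (0.83 ± 0.18, adjusted p = 0.0368) and differed by 0.79 at day 7.

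The repair keratins had the opposite sign at day 7. The difference of Krt16 was 1.28 at day 1 and -1.56 at day 7, where the means were 155 ± 39.9 (SD, n = 3, transgenic) and 515 ± 96.7 (SD, n = 2, wild-type). The difference between these days was -2.84 ± 0.30 (SE), given as a description. Krt6b went from 1.66 to -1.39, Gm13889 from 1.29 to -1.63 and Lmod2 from 1.32 to -1.21. Sox4 turned the other way, from -0.48 to 1.33, with 3699 ± 202 (SD, n = 3) in transgenic skin at day 7 against 891 ± 60.9 (SD, n = 3) at day 1. The glucocorticoid-responsive list had a median of -0.02 at day 0, 0.32 at day 1 and -0.28 at day 7. Past the threshold at day 7, 4 of its 27 genes were higher and 8 lower, near the 19.5% and 21% of all genes. Of the list, Tsc22d3 was -0.28 (adjusted p = 0.174), Fkbp5 -0.14 (adjusted p = 0.566) and Dusp1 -1.01 (adjusted p = 6.65e-06) at day 7.

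The probe sets of a gene did not always go together. For 51 of the 118 genes another probe set was kept, 67 in all, of which 48 had the sign of the brightest one and 19 the opposite sign. An unadjusted p under 0.05 was reached by 19 of the 48 and by 2 of the 19.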

How the data were processed

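RNA of total skin was read on Affymetrix 430 A arrays, 1 per sample, per the labels. The authors deposited 1 linear intensity for each of 22690 probe sets, and 64 of these are controls. How probes were summarised is not stated in the sources used here, and detection calls were not used. Arrays were scaled to 1 trimmed mean, with 2% off each end, because they differed by more than the limit of 10%, and log2(intensity + 32) was taken. The filter kept 15058 probe sets that passed the 40th percentile on 2 or more arrays. Symbols came from the platform annotation, where 20380 probe sets had 1 symbol, 691 several and 1555 none, and 0 changed on lookup in RefSeq. For each of 9058 genes the brightest of its kept probe sets with 1 symbol (13882 in all) was used.

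The fit of the 6 group means to all 16 arrays used limma 3.58.1 (R 4.3.3), a variance trend and 10 residual degrees of freedom, and was also tested on simulated data. With 3 arrays against 3, an exact permutation test cannot go below p = 0.1, so single genes rest on the limma fit. The number of arrays limits the precision, and there is no read depth. Whether replicate numbers pair the arrays was not settled, and they were not used as a block in the main fit. Named are the 12 largest differences in each direction, up to 4 members of each list past the threshold or 2 bright members where there were 0, genes past the threshold also at day 7 or in the interaction, and a fixed set, with exceptions picked after their values were seen: Plec, Inhbb, Cherp, Eppk1, Lad1, Sfn, Wls, Adamts5, Fgf7, Krt75 and the list members not past the threshold. The comparison of day 7 with day 1 was also added after the data were seen. Members and lists were chosen with earlier results of these data known. Alternatives were the scaling, the added value (8 or 128), the filter (none, or the 60th percentile on 3 arrays), the variance trend, the arrays fitted, the probe sets, a replicate block and leaving out each array. Plots were made in Python 3.11.15 with matplotlib 3.10.9.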

Additional observations from a re-analysis of the deposited data

Results flagged for a closer look

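The limma interaction of genotype and day, from day 0 to day 1, was past the threshold for 12 of the named genes (adjusted p between 0.0173 and 0.0426). Over all genes it was past the threshold for 26 (0.287%), and that count fell to 0 when certain single arrays were left out. All 12 were named for passing it or picked after their values were seen, so the values describe them and add no support. The value at day 1 minus that at day 0 was positive for Tnfrsf12a (1.81), Gm13889 (1.50), Mt2 (1.07), Msmo1 (1.00) and Plec (0.67). It was negative for 6820431F20Rik (-1.67), Wdfy3 (-1.60), Kdm7a (-1.37), Ugcg (-1.21), Sema3c (-1.14), Thbs1 (-1.12) and Cherp (-0.73).

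The difference also had opposite signs at day 1 and day 7 for 12 named genes. They were picked for being past the threshold on both days with opposite signs, so the values describe them and no p is read. The value at day 7 minus that at day 1 was -3.05 for Krt6b, -2.92 for Gm13889, -2.84 for Krt16, -2.53 for Lmod2, -2.19 for Rusc2, -1.51 for Dusp1, -1.43 for Eppk1 and -0.79 for Plec. It was 1.81 for Sox4, 1.38 for Ugcg, 1.24 for Kdm7a and 1.03 for Fgf7.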

How the results depend on the processing

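The count of 118 genes was 16 without further scaling and 27 when the 6 arrays were fitted alone, and ranged from 17 to 127 with each array left out in turn. Under the other settings it lay between 79 and 145, with 61.5% of genes higher under quantile normalization, 62.3% under the stricter filter and 42.1% over all probe sets, against 54.2% as reported. With further scaling left out, 75% were higher and 12 of the 118 genes were shared. The interaction count of 26 was 7 without further scaling, 8 without the filter, 15 without the variance trend and 4 with the replicate block (0 higher and 4 lower), and ranged from 0 to 24 with arrays left out. The day 7 count of 3669 was 1744 without further scaling and ranged from 2522 to 3774, and the day 0 count of 1 ranged from 0 to 2. As for pairing, deviations of arrays of the same number correlated at r = 0.173, 0.0976 and 0.0887. For arrays of unlike number r ran from -0.171 to 0.0646, below each of these. The replicate block gave 91 genes at day 1, of which 78 were among the 118. Of the genes named in the text, those reversed were Wls without wild-type day 1 replicate 3 (0.010, with a range down to -0.66 over the arrays left out) and on another probe set (0.047), and Shoc2 on another probe set (-0.24). Wls had another probe set as its brightest there. For Shoc2 the cause was not tested. Over all 118 genes, 16 had another probe set of the opposite sign. The median of the glucocorticoid-responsive list lay between 0.27 and 0.41 under all settings run, with 3 to 7 members past the threshold. A total of 3 arrays per group limits what could be called, and transgene and strain cannot be told apart.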

Other observations

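The remaining lists are read beside the 1.3% of all genes past the threshold at day 1. Of 17 tested clock genes 1 was past it, Nfil3 (0.83), and the median was -0.01. Dbp, which encodes a transcription factor of the clock's output, stood at 909, 1175 and 772 in transgenic and 1572, 1660 and 1416 in wild-type skin (-0.70 ± 0.18, adjusted p = 0.0687). Nr1d1, a repressor of the clock loop, stood at 423, 502 and 388 against 631, 570 and 573 (-0.41 ± 0.13, adjusted p = 0.111). The groups did not overlap for Dbp or Nr1d1, as for 24.8% of all genes. At day 0 the differences were -0.38 and -0.16, and at day 7 they were -1.15 (adjusted p = 0.000353) and -1.30 (adjusted p = 8.26e-06). The hour of sampling is not given in the labels, and its part was not tested.

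Of 32 immediate early genes 1 was past the threshold, Dusp1 (0.50), which is also on the glucocorticoid-responsive list, and the median was 0.14. Maff, a small partner of stress-responsive factors, stood at 66.2, 136 and 74.0 against 8.32, 39.5 and 47.8 (0.97 ± 0.23, adjusted p = 0.0539). In limma no gene was past the threshold among 22 interferon response, 23 heat shock and unfolded protein, 19 xenobiotic and oxidative stress and 11 oestrogen-responsive genes. At an unadjusted p under 0.05 these lists had 0 higher and 2 lower, 3 and 2, 3 and 2, and 0 and 3. Their medians were -0.15, 0.09, -0.04 and -0.14. The brightest members of the oestrogen-responsive list, Ctsd and Igfbp4, differed by 0.11 and -0.04. Ctsd was the 1 member of that list above 0, and the other 10 values were below it. The list's summed intensity was 22636 to 23616 in transgenic and 24185 to 24909 in wild-type skin, which did not overlap.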
